A study of Mus musculus with 6 samples.

Results

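The 8 genes described here carry the glucocorticoid signal in the mouse hypothalamus: the receptors Nr3c1 and Nr3c2, the steroid-activating enzyme Hsd11b1, the receptor's feedback co-chaperone Fkbp5, and the responsive genes Sgk1, Tsc22d3, Pdk4 and Zbtb16. They were chosen by name, and every non-control probe whose transcript maps to them was taken, which gave 9 of the 39429 probes on the array (2 for Nr3c1 and 1 for each other gene) and 8 of its 19751 genes with a symbol. All 9 were well above background on all 6 arrays, none was saturated, and all 9 were among the 28064 probes tested. Transcripts of whole hypothalamus from male C57BL/6J mice of 16 weeks were measured on 6 one-colour arrays, 2 for each of 3 genotypes. Trsp-RIPKO mice carry RIP-Cre and Trsp-Ins1KO mice carry Ins1-Cre, each on 2 floxed alleles of Trsp, the gene for the transfer RNA that brings selenocysteine to selenoproteins. TrspFF mice, the controls, carry the same floxed alleles without a Cre driver.

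RIP-Cre is driven by the rat insulin promoter and is known to act in pancreatic beta cells and in part of the hypothalamus, whereas Ins1-Cre is known for its action in beta cells. Only a part of the cells in whole hypothalamus can therefore carry the deletion. No group analysed here has a Cre driver without the floxed alleles, so the driver and the deletion cannot be told apart. Trsp has 0 probes, and the deletion itself was not checked. The labels do not say whether the 2 arrays of a genotype came from separate animals, and the p-values therefore speak of the spread between arrays alone, which may be technical.

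Glucocorticoids, corticosterone in mice, are released by the adrenal cortex under control of the hypothalamus and pituitary, and they restrain their own release by acting back on both. The hormone enters cells and binds the glucocorticoid receptor Nr3c1 or, with higher affinity, the mineralocorticoid receptor Nr3c2, which wait in the cytosol in complexes with heat shock protein chaperones. The bound receptor moves to the nucleus and sits on DNA at glucocorticoid response elements, paired copies of a short hexamer, from which it raises or lowers transcription of its target genes.

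A level below is the log2 of a probe's processed signal after division by the 75th percentile of that array, and it is 0 for a probe at the percentile. A difference is the mean level of the genotype named earlier minus that of the other, and levels of different probes are not set against each other. That percentile lay between 1391 and 2137 intensity units, and the share of probes well above background ranged over the arrays between 68.9% and 72.0%. All 12 hypothalamic marker genes looked up, among them Pomc, Agrp, Oxt and Crh, had tested probes. Both TrspFF arrays were hybridised on 1 slide in 1 scan and all 4 knockout arrays on another, so slide and genotype cannot be told apart in the comparisons with TrspFF. Trsp-RIPKO and Trsp-Ins1KO arrays shared a slide.

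The names of the knockouts differ between the deposited files. Value-table columns labelled Trsp-RIPKO matched the scanner arrays labelled Trsp-Ins1KO, and the reverse, with correlations across probes of 0.999989 or above. Against the arrays of their own label, the same columns had correlations of -0.449 to -0.289. Names here follow the scanner files. Under the table's names, each value given for Trsp-RIPKO belongs to Trsp-Ins1KO and the reverse, and each difference between the knockouts turns its sign.

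None of the 9 probes passed the test in any comparison, where limma with Benjamini-Hochberg adjustment over all 28064 probes called 1.49% of probes in Trsp-RIPKO against TrspFF, 1.66% in Trsp-Ins1KO against TrspFF and 0.0143% in Trsp-RIPKO against Trsp-Ins1KO (adjusted p under 0.05). At an unadjusted p under 0.05 there were 1, 2 and 2 of the 9 probes in the same 3 comparisons, against 23.9%, 25.7% and 18.2% of all probes. Fkbp5 had the lowest adjusted p of the 9 in both comparisons with TrspFF. Its 4 knockout arrays all lay below both TrspFF arrays, as on 18% of all probes. Hsd11b1 and Zbtb16 were the members whose Trsp-RIPKO arrays both lay above both Trsp-Ins1KO arrays, as on 23% of all probes. The 2 TrspFF arrays serve both of the comparisons with that genotype, so those comparisons are not independent.

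**Figure D1:**
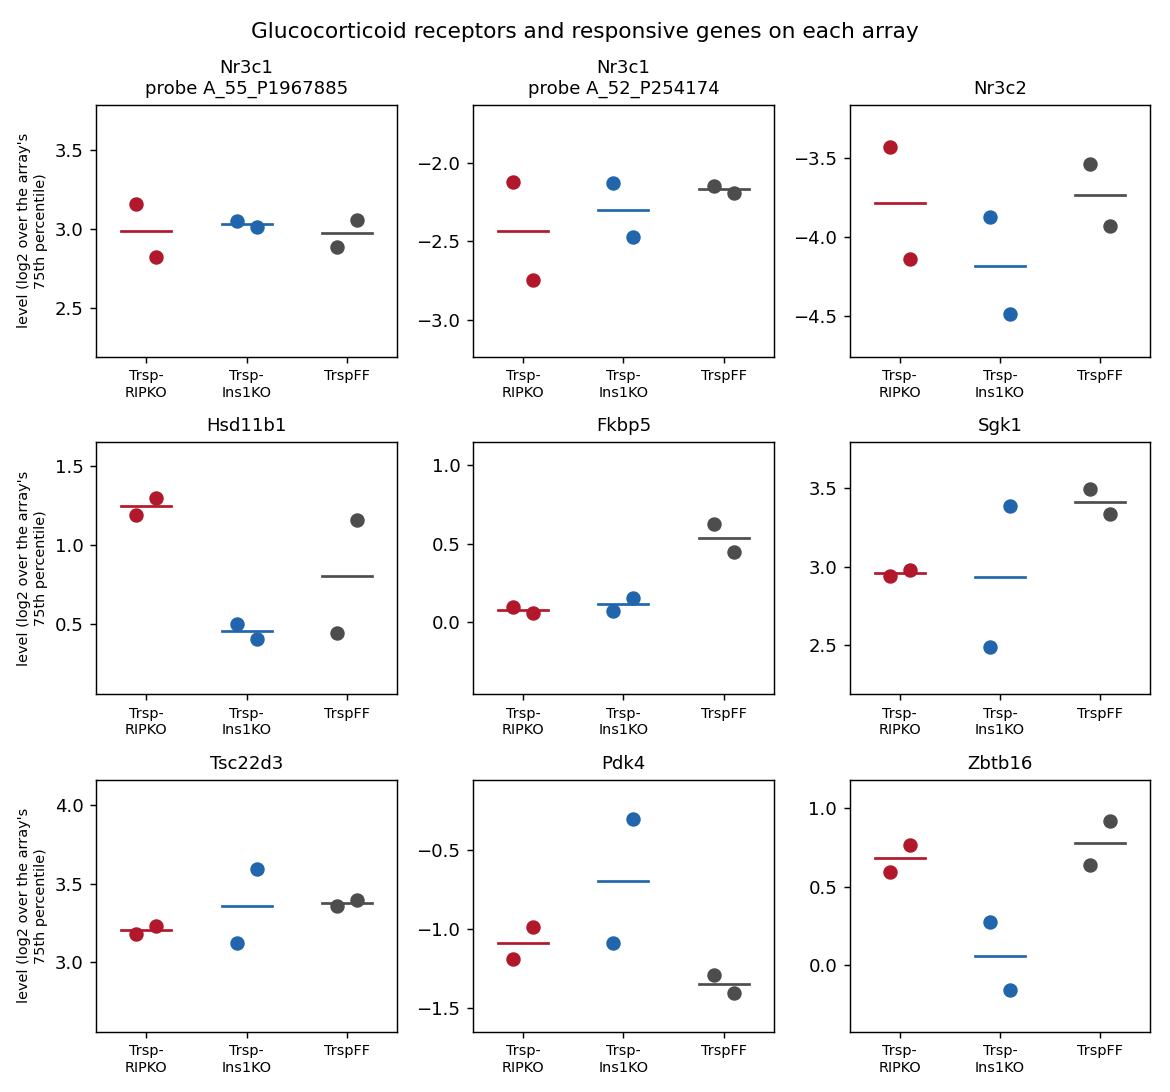
Level of each of the 9 probes on each array, with 1 panel per probe, the level on the vertical axis (log2 over the array's 75th percentile) and a bar at the mean of the 2 arrays of a genotype. The panels have different positions on the axis. All 4 knockout points of Fkbp5 lie below both TrspFF points, and both Trsp-Ins1KO points of Zbtb16 lie below all others.

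The glucocorticoid receptor gene Nr3c1 (chr18:39410545-39519421 in build GRCm38.p6) is read by 2 probes of the same transcript. On probe A_55_P1967885 its level was 3.16 and 2.82 in Trsp-RIPKO and 3.05 and 3.01 in Trsp-Ins1KO, against 2.88 and 3.06 in TrspFF. The arrays of the 3 genotypes overlapped. Trsp-RIPKO differed from TrspFF by 0.017 (SE 0.143, 95% interval -0.35 to 0.39), Trsp-Ins1KO from TrspFF by 0.058 (-0.31 to 0.43), and Trsp-RIPKO from Trsp-Ins1KO by -0.041 (-0.41 to 0.33). The sign of these small differences depends on the background correction, since normexp gave -0.38 for Trsp-RIPKO and -0.32 for Trsp-Ins1KO against TrspFF.

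The other Nr3c1 probe, A_52_P254174, had levels of -2.12 and -2.74 in Trsp-RIPKO and -2.13 and -2.47 in Trsp-Ins1KO, against -2.15 and -2.19 in TrspFF. On this probe each knockout had 1 array above and 1 below the TrspFF arrays. The difference from TrspFF was -0.26 (SE 0.24) in Trsp-RIPKO and -0.13 (SE 0.24) in Trsp-Ins1KO, with adjusted p of 0.529 and 0.752 by limma. Neither probe thus separated the genotypes, and the 95% intervals of the brighter probe end at -0.41 and 0.43 over the 3 comparisons. These limits hold for the scanner software's background subtraction only. Under normexp the brighter probe differed from TrspFF by -0.38 in Trsp-RIPKO and -0.32 in Trsp-Ins1KO, with an SE of 0.154.

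The mineralocorticoid receptor gene Nr3c2 (chr8:76898083-77245012) encodes the receptor that is filled at low hormone levels in the brain. Its level was -3.43 and -4.14 in Trsp-RIPKO and -3.87 and -4.49 in Trsp-Ins1KO, against -3.53 and -3.93 in TrspFF. The 2 arrays of a genotype lay 0.39 to 0.71 apart, and all 3 genotypes overlapped. The differences were -0.054 for Trsp-RIPKO and -0.45 for Trsp-Ins1KO against TrspFF, and 0.40 for Trsp-RIPKO against Trsp-Ins1KO, each with an SE of 0.333, the largest among the 9 probes. The small Trsp-RIPKO difference turned positive under normexp correction, quantile normalization and median scaling (0.055 to 0.11).

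Hsd11b1 (chr1:193221640-193264045) encodes the reductase that makes active corticosterone from its inactive ketone within cells, and so sets how much hormone reaches the receptors. It is the one member printed in 10 spots per array, of which 9 or 10 carried no quality flag, and the SD between those spots was 0.018 to 0.042. Its level was 1.19 and 1.30 in Trsp-RIPKO and 0.50 and 0.40 in Trsp-Ins1KO, against 0.44 and 1.16 in TrspFF. The arrays within each knockout lay close together (0.11 and 0.10 apart), while the TrspFF arrays were 0.72 apart, 1 near each knockout.

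Between the knockouts, Hsd11b1 was 1.73-fold higher in Trsp-RIPKO than in Trsp-Ins1KO (difference 0.79, SE 0.245, 95% interval 0.16 to 1.43, n = 2 per genotype). This did not pass the test (unadjusted p = 0.0238, adjusted p = 0.265 by limma over all probes), and 18.2% of all probes had an unadjusted p under 0.05. Both Trsp-RIPKO arrays lay above both Trsp-Ins1KO arrays, as they did for 23% of all probes. A fit of these 2 genotypes alone, which lie on 1 slide, gave the same difference with an adjusted p of 0.0594. Against TrspFF the difference was 0.44 in Trsp-RIPKO (adjusted p = 0.331) and -0.35 in Trsp-Ins1KO (adjusted p = 0.411).

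Several marker lists differed between the knockouts in the direction of Hsd11b1. Within Trsp-Ins1KO the cortex and choroid plexus means lay far apart, while the endothelial means, like the Hsd11b1 levels, lay closer together. Within TrspFF the choroid plexus mean was higher on the array where Hsd11b1 was lower, and the cortex and endothelial means were lower there. Most hypothalamic (10 of 12), astrocyte (5 of 8) and microglial (7 of 8) markers had negative differences between Trsp-RIPKO and Trsp-Ins1KO. The mean level of 8 cortex and hippocampus markers was -0.996 and -0.968 in Trsp-RIPKO and -1.81 and -3.73 in Trsp-Ins1KO, against -2.08 and -1.31 in TrspFF, and 8 of 8 had a positive difference between Trsp-RIPKO and Trsp-Ins1KO. The mean of 8 endothelial markers was -0.38 and -0.33 in Trsp-RIPKO and -1.27 and -1.09 in Trsp-Ins1KO, against -0.88 and -0.50 in TrspFF, again with 8 of 8 positive. For 12 choroid plexus markers it was -0.22 and -0.01 in Trsp-RIPKO and -0.63 and -3.42 in Trsp-Ins1KO, against 0.31 and -0.19 in TrspFF, with 11 of 12 positive between the knockouts. The part of these markers in the Hsd11b1 values was not tested. In bulk tissue, fewer cells of a type and less RNA per cell cannot be told apart.

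**Figure D2:**
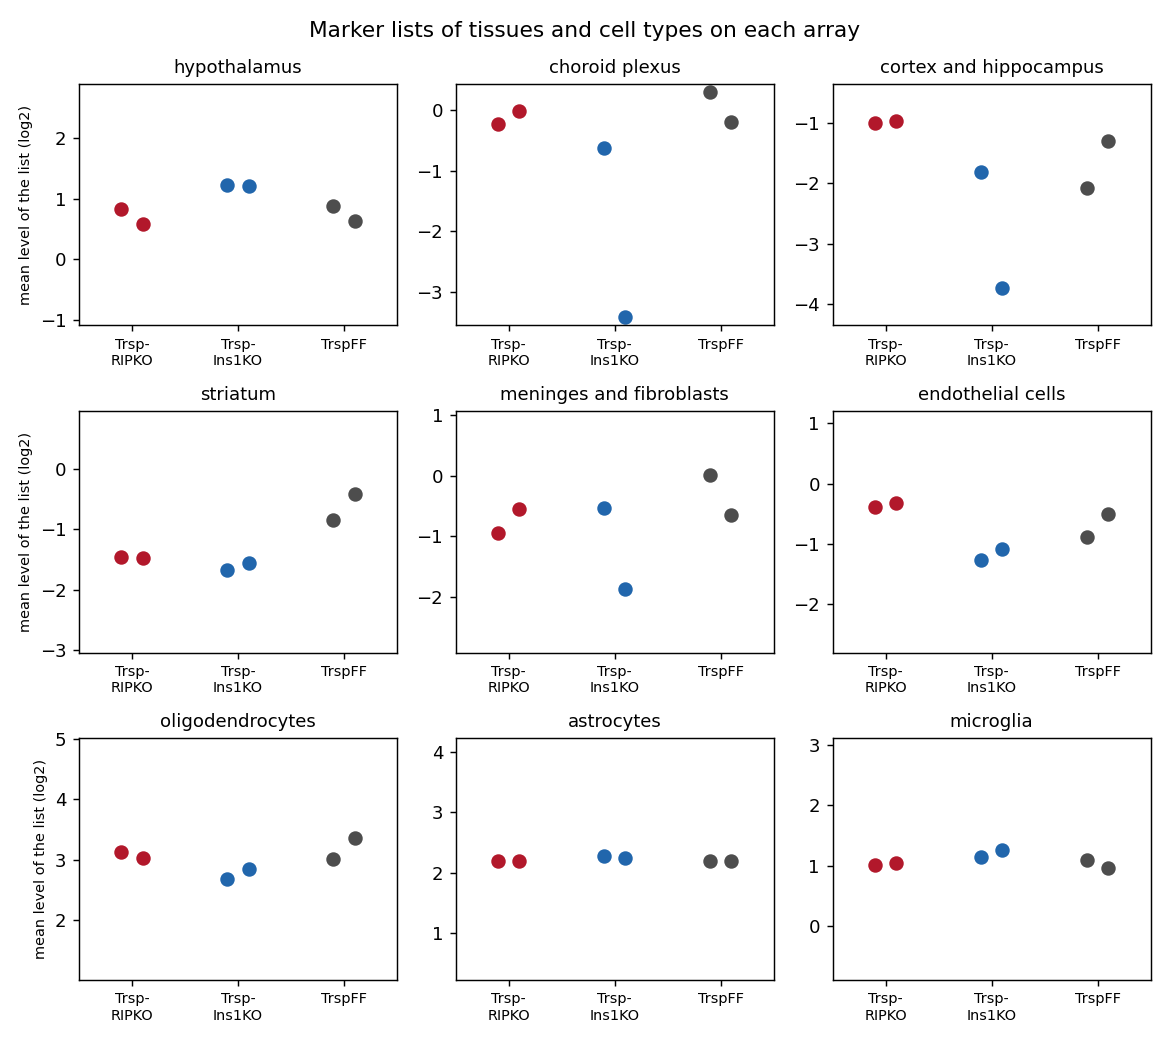
Mean level (log2) of 9 marker lists on each array, with 1 panel per tissue or cell type and 1 point per array. Cortex and hippocampus, endothelial and oligodendrocyte markers are lower on both Trsp-Ins1KO arrays than on both Trsp-RIPKO arrays, choroid plexus markers lie lowest on Trsp-Ins1KO replicate 2 at -3.42, and the astrocyte means span 2.19 to 2.27.

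Fkbp5 (chr17:28398753-28486149) encodes a co-chaperone that joins the receptor complex, lowers its affinity for hormone and is itself induced by the receptor, a short feedback loop. Its level was 0.10 and 0.06 in Trsp-RIPKO and 0.07 and 0.16 in Trsp-Ins1KO, against 0.63 and 0.45 in TrspFF. All 4 knockout arrays lay within 0.06 to 0.16 and below both TrspFF arrays. The knockouts overlapped each other.

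Fkbp5 was 1.37-fold lower in Trsp-RIPKO than in TrspFF (difference -0.46, SE 0.0999, 95% interval -0.71 to -0.20, n = 2 per genotype). In Trsp-Ins1KO it was 1.34-fold lower than in TrspFF (difference -0.42, SE 0.0999, 95% interval -0.68 to -0.16). Neither passed the threshold after adjustment over all probes by limma (unadjusted p = 0.00623 and adjusted p = 0.0966 in Trsp-RIPKO, unadjusted p = 0.00871 and adjusted p = 0.0991 in Trsp-Ins1KO). Trsp-RIPKO and Trsp-Ins1KO differed by -0.036, with a 95% interval of -0.29 to 0.22.

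With the knockouts averaged, a comparison added after the values were seen, Fkbp5 changed by -26.2% relative to TrspFF without passing the test (difference -0.44, SE 0.0865, 95% interval -0.66 to -0.22, adjusted p = 0.0666 by limma). The same comparison called 3.67% of all probes, and on 18% of all probes all 4 knockout arrays lay below both TrspFF arrays. Over 17 alternatives and the joint comparison, the difference from TrspFF stayed negative in both knockouts and no alternative brought it past the threshold. The mean level of 8 striatal markers moved the same way, at -1.46 and -1.48 in Trsp-RIPKO and -1.67 and -1.57 in Trsp-Ins1KO, against -0.84 and -0.41 in TrspFF, with 8 of 8 markers negative in both comparisons. The 2 tested pituitary markers of 7, Cga and Lhb, were also lower on all 4 knockout arrays, with a mean of -5.60 and -5.84 in Trsp-RIPKO and -5.81 and -6.33 in Trsp-Ins1KO, against -2.98 and -5.05 in TrspFF. Cga, the common subunit of the pituitary glycoprotein hormones, was not well above background on the knockout arrays and had levels of -1.78 and -5.88 in TrspFF. It therefore passed the filter only through TrspFF, which favours a lower level in the knockouts. The part of these markers in the Fkbp5 values was not tested.

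Sgk1 (chr10:21882184-21999903) encodes a serum- and glucocorticoid-regulated kinase that controls ion channels and transporters and is a direct target of both receptors. Promoter windows number 6 for Sgk1, 3 for Tsc22d3 and 1 for Fkbp5. The Sgk1 window shown is that gene's only one with the full response element. The Tsc22d3 window shown is that gene's only one with the hexamer. These 3 windows are shown to set the response element beside the levels of the genes. They run from 250 bases before to 50 bases after a transcription start, as RefSeq gives it for GRCm38.p6, and capitals mark the hexamer AGAACA on either strand (printed as TGTTCT where it lies on the other) and the full element, AGAACA and TGTTCT with 3 bases of any kind between them, which contains 2 hexamers.
Sgk1, chr10:21993640-21993939, plus strand: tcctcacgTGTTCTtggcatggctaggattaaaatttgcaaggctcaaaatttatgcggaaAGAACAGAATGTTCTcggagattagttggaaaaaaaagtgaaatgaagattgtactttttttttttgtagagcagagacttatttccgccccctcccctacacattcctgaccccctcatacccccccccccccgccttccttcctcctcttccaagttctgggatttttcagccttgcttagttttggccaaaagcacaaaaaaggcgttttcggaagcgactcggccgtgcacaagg
Tsc22d3, chrX:140600473-140600772, minus strand: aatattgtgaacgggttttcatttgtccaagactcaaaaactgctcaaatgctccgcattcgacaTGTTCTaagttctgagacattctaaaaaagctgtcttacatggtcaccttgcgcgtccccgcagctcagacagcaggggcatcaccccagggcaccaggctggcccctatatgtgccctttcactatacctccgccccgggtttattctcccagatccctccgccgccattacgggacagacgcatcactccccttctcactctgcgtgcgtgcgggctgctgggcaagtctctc
Fkbp5, chr17:28486100-28486399, minus strand: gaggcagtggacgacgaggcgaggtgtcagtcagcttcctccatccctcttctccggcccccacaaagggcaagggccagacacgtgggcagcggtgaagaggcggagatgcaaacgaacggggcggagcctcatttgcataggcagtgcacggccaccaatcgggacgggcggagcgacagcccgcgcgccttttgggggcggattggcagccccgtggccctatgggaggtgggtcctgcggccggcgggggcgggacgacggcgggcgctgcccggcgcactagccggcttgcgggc

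The Sgk1 window holds the full element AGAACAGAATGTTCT at chr10:21993701-21993715, starting 189 bases before the transcription start, and a further hexamer 242 bases before it. Of 32851 promoter windows in the table, 3 (0.00913%) hold the full element and 6233 (19%) hold the hexamer. Of 13 windows of the 6 members in that table, 1 held the full element and 4 held the hexamer, 3 of Sgk1 and 1 of Tsc22d3. The Tsc22d3 window has its hexamer 185 bases before the start, and the Fkbp5 window has no match to these letters. The table does not say which start the measured transcripts use.

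Sgk1 had levels of 2.94 and 2.98 in Trsp-RIPKO and 2.49 and 3.39 in Trsp-Ins1KO, against 3.49 and 3.33 in TrspFF. Both Trsp-RIPKO arrays lay below both TrspFF arrays, while the Trsp-Ins1KO arrays were 0.90 apart and 1 of them lay between the TrspFF arrays. The difference from TrspFF was -0.45 in Trsp-RIPKO (SE 0.301, adjusted p = 0.401 by limma) and -0.48 in Trsp-Ins1KO (SE 0.301, adjusted p = 0.364). Without Trsp-Ins1KO replicate 1 the Trsp-Ins1KO difference was -0.028 and without replicate 2 it was -0.92, so its size rests on single arrays. Trsp-RIPKO and Trsp-Ins1KO differed by 0.021 (95% interval -0.76 to 0.80).

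Tsc22d3 (chrX:140539528-140600522) encodes the glucocorticoid-induced leucine zipper protein, which mediates anti-inflammatory actions of the hormone. Its level was 3.18 and 3.23 in Trsp-RIPKO and 3.13 and 3.59 in Trsp-Ins1KO, against 3.36 and 3.39 in TrspFF. The Trsp-RIPKO arrays lay below both TrspFF arrays and the Trsp-Ins1KO arrays on either side of them. The difference from TrspFF was -0.17 in Trsp-RIPKO (95% interval -0.61 to 0.27) and -0.015 in Trsp-Ins1KO (95% interval -0.45 to 0.42), a sign that turned under normexp correction (0.054) and median scaling (0.072).

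Pdk4 (chr6:5483351-5496278) encodes the pyruvate dehydrogenase kinase that holds back glucose oxidation, and it is induced by fasting as well as by glucocorticoids. Its level was -1.19 and -0.99 in Trsp-RIPKO and -1.09 and -0.30 in Trsp-Ins1KO, against -1.29 and -1.41 in TrspFF. All 4 knockout arrays lay above both TrspFF arrays, as they did for 16.4% of all probes. Pdk4 was 1.20-fold higher than TrspFF in Trsp-RIPKO (difference 0.26, SE 0.273, adjusted p = 0.587 by limma) and 1.58-fold higher in Trsp-Ins1KO (difference 0.66, SE 0.273, adjusted p = 0.215). Neither difference passed the test. The Trsp-Ins1KO arrays were 0.79 apart, and with 1 array left out the difference ranged from 0.26 to 1.05 in Trsp-Ins1KO and from 0.16 to 0.36 in Trsp-RIPKO.

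Zbtb16 (chr9:48651797-48836225) encodes a zinc finger transcription factor whose transcript is induced by glucocorticoids in many tissues. Its level was 0.59 and 0.76 in Trsp-RIPKO and 0.28 and -0.16 in Trsp-Ins1KO, against 0.63 and 0.92 in TrspFF. Both Trsp-Ins1KO arrays lay below the other 4, and Trsp-RIPKO overlapped TrspFF. On 23% of all probes both Trsp-RIPKO arrays lay above both Trsp-Ins1KO arrays. Zbtb16 was 1.64-fold lower in Trsp-Ins1KO than in TrspFF (difference -0.72, SE 0.19, 95% interval -1.21 to -0.22, unadjusted p = 0.0135, adjusted p = 0.115 by limma). In Trsp-RIPKO it was 1.54-fold higher than in Trsp-Ins1KO (difference 0.62, SE 0.19, 95% interval 0.13 to 1.11, unadjusted p = 0.0230, adjusted p = 0.265). Trsp-RIPKO differed from TrspFF by -0.096 (95% interval -0.59 to 0.40). Cortex and hippocampus, endothelial and oligodendrocyte markers were also lower in Trsp-Ins1KO than in Trsp-RIPKO (8 of 8 each). So were 11 of 12 choroid plexus, 7 of 8 meningeal and fibroblast and 5 of 8 striatal markers. Most hypothalamic (10 of 12), astrocyte (5 of 8) and microglial (7 of 8) markers were higher in Trsp-Ins1KO. The part of these markers in the Zbtb16 values was not tested.

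**Figure D3:**
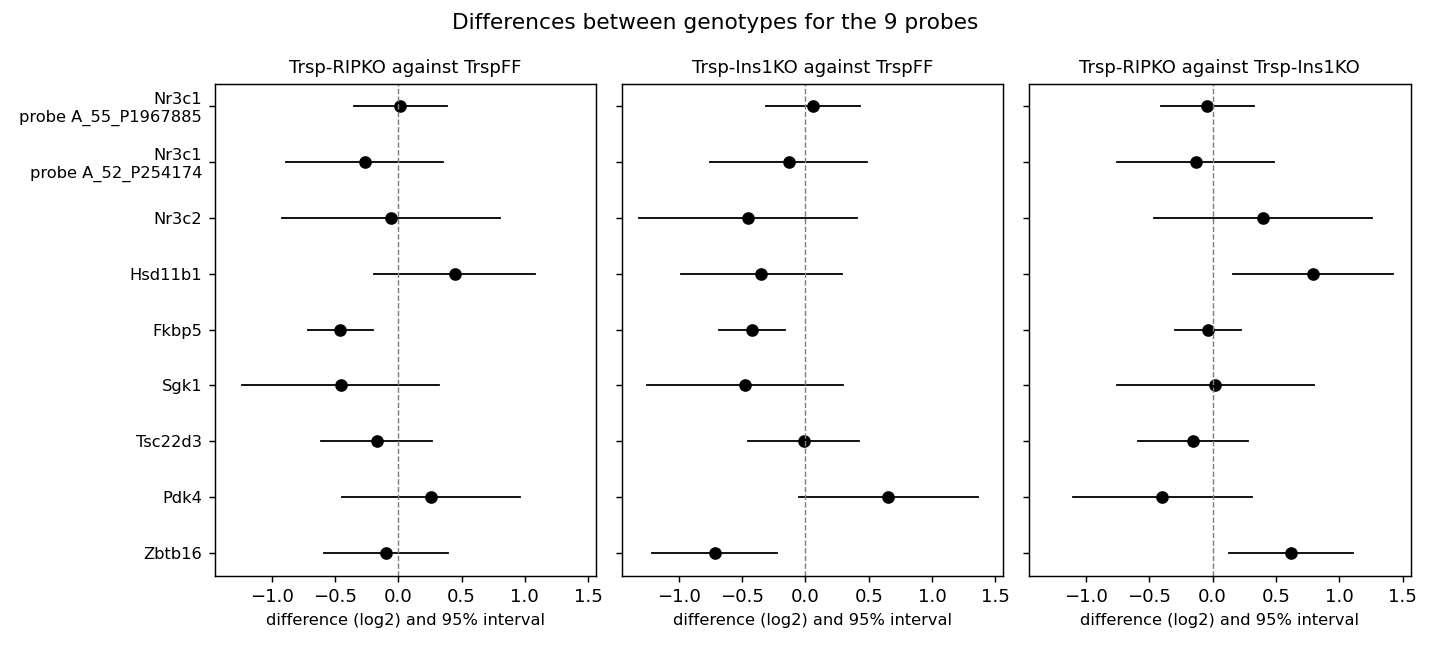
Difference (log2) between genotypes for each of the 9 probes in the 3 comparisons, with points at the fitted difference and bars for the 95% interval of limma. The Fkbp5 intervals lie below 0 in both comparisons with TrspFF, the Zbtb16 interval lies below 0 in Trsp-Ins1KO against TrspFF, and Hsd11b1 and Zbtb16 lie above 0 between the knockouts. The intervals are not adjusted over probes.

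Taking the 9 probes as a list, the arrays did not overlap on 5 probes in Trsp-RIPKO against TrspFF (2 above, 3 below), on 3 in Trsp-Ins1KO against TrspFF (1 above, 2 below) and on 2 in Trsp-RIPKO against Trsp-Ins1KO (2 above), against 58.1% of all probes in each comparison. The median difference over the 9 probes was -0.096 in Trsp-RIPKO against TrspFF, beside -0.019 over all probes, and -0.35 in Trsp-Ins1KO against TrspFF, beside 0.016. Between the knockouts it was -0.036, beside -0.046 over all probes. None of the responsive genes passed the test, and their fitted differences from TrspFF did not share 1 sign. In both knockouts the fitted differences from TrspFF were negative for Fkbp5, Sgk1, Tsc22d3 and Zbtb16 and positive for Pdk4, with signs that turned for Tsc22d3 in Trsp-Ins1KO as given above and for Zbtb16 in Trsp-RIPKO under median scaling (0.013).

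The genes whose centred levels followed a member most closely over the 6 arrays were found by the root mean square difference among 15086 genes. For Fkbp5 these were Uts2r (0.0235) and Snhg17 (0.0327), and for Nr3c1 they were Dgkb (0.0382) and Insig1 (0.0416). For Sgk1 they were Spire2 (0.0685) and Ifna2 (0.0841), and for Tsc22d3 Nefm (0.0292) and Exd1 (0.0343). The unit is log2, and the likeness is a description of these 6 arrays.

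In 5 further lists of the pathway, read by the brightest probe of each gene, 1 gene passed the test, in both comparisons with TrspFF. Among all 15598 tested genes with a symbol, read the same way, 0.667% were called lower and 0.0769% higher in Trsp-RIPKO against TrspFF, and 0.737% lower and 0.167% higher in Trsp-Ins1KO against TrspFF. Between the knockouts 0.0256% were called lower and none higher.

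The called gene was Ppp5c, among 18 chaperones and coregulators of the receptor. It encodes the tetratricopeptide phosphatase that sits in receptor complexes with the heat shock protein chaperone. Its level was 0.54 and 0.54 in Trsp-RIPKO and 0.64 and 0.65 in Trsp-Ins1KO, against 1.54 and 1.41 in TrspFF. All 4 knockout arrays lay below both TrspFF arrays, as on 18% of all probes. Ppp5c fell by 0.94 in Trsp-RIPKO (SE 0.0865, adjusted p = 0.0276 by limma) and by 0.83 in Trsp-Ins1KO (SE 0.0865, adjusted p = 0.0330).

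With any one of the 6 arrays left out, the Ppp5c difference stayed between -0.999 and -0.876 in Trsp-RIPKO and between -0.89 and -0.77 in Trsp-Ins1KO, while most of these fits, which have fewer arrays to estimate the spread, lost the call. In Trsp-RIPKO the adjusted p was 0.0421 without TrspFF replicate 2 and 0.0856 to 0.196 without any one of the other 5 arrays. In Trsp-Ins1KO it was 0.0571 to 0.150 with any one of the 6 arrays left out. The call also ended, at the same differences, with no filter on dim probes (adjusted p = 0.0862 and 0.0880) and in a fit of only the 2 genotypes compared (0.0856 and 0.104). The remaining 17 genes of the list, such as the chaperones Hsp90aa1, Hspa8 and Fkbp4, did not pass, and the median difference of all 18 was 0.0085 in Trsp-RIPKO and 0.050 in Trsp-Ins1KO. The striatal markers given beside Fkbp5 were lower on the same 4 arrays as Ppp5c, and their part in its values was not tested.

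The stress axis, from hypothalamic releasing peptides to their receptors, had 12 tested genes and 0 calls by limma in any comparison. Its median difference from TrspFF was 0.22 in Trsp-RIPKO, with 9 of 12 positive, and 0.55 in Trsp-Ins1KO, with 12 of 12 positive (11 under normexp correction), against 52.5% and 57.1% of all tested genes with a symbol. Adcyap1, the gene of the peptide PACAP, had levels of 0.96 and 1.17 in Trsp-RIPKO and 1.01 and 1.27 in Trsp-Ins1KO, against 0.42 and 0.24 in TrspFF. The 4 knockout arrays lay above both TrspFF arrays, as on 16.4% of all probes, with differences of 0.73 (adjusted p = 0.0841) and 0.81 (adjusted p = 0.0696 by limma).

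Pomc, the precursor of corticotropin and melanocortins, had levels of 1.57 and 1.62 in Trsp-RIPKO and 1.97 and 1.39 in Trsp-Ins1KO, against 0.85 and 0.75 in TrspFF. It too was higher on all 4 knockout arrays, as were 16.4% of all probes, without passing the test (differences 0.79 and 0.88, adjusted p = 0.121 and 0.0958 by limma). Avp, the gene of vasopressin, had levels of 3.60 and 2.82 in Trsp-RIPKO and 4.25 and 4.36 in Trsp-Ins1KO, against 3.39 and 2.68 in TrspFF. The Avp levels of Trsp-Ins1KO lay above the other 4 arrays, and Trsp-RIPKO overlapped TrspFF. The mean of the 12 hypothalamic markers, which include Pomc and Avp, was 0.84 and 0.58 in Trsp-RIPKO and 1.23 and 1.21 in Trsp-Ins1KO, against 0.87 and 0.64 in TrspFF, and its part in these values was not tested.

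Crh, the releasing hormone that glucocorticoids restrain in the paraventricular nucleus, was picked after its values were seen. Its level was -1.36 and -1.34 in Trsp-RIPKO and -1.22 and -1.57 in Trsp-Ins1KO, against -1.51 and -1.43 in TrspFF. The differences from TrspFF, 0.12 and 0.078 (SE 0.138 each), were within their error and turned to -0.10 and -0.12 under normexp correction.

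Among 11 genes of steroid transport and metabolism 0 passed in any comparison by limma. Por, the electron donor of microsomal steroid hydroxylases, had levels of 2.56 and 2.49 in Trsp-RIPKO and 2.71 and 2.70 in Trsp-Ins1KO, against 2.97 and 2.93 in TrspFF (differences -0.43 and -0.24, adjusted p = 0.0819 and 0.158). All 4 knockout arrays lay below both TrspFF arrays, as on 18% of all probes. The efflux pump genes Abcb1a and Abcb1b were lower on both Trsp-Ins1KO arrays than on both Trsp-RIPKO arrays, as were 23% of all probes. Abcb1a had -0.06 and 0.08 in Trsp-RIPKO, against -1.25 and -0.89 in Trsp-Ins1KO (difference 1.08, adjusted p = 0.265). Abcb1b had -2.44 and -2.20 in Trsp-RIPKO, against -4.35 and -4.32 in Trsp-Ins1KO (difference 2.01, adjusted p = 0.265 by limma). A limma fit of these 2 genotypes alone gave Abcb1b an adjusted p of 0.0193 and called 385 probes, beside 4 as reported. That fit leaves out the TrspFF arrays, which stood at -4.04 and -2.54 for Abcb1b. The endothelial markers given beside Hsd11b1 were lower on the same arrays, and their part in these values was not tested.

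A further 30 genes known to respond to glucocorticoids gave 0 calls by limma, with medians of -0.020 in Trsp-RIPKO and -0.084 in Trsp-Ins1KO against TrspFF, and 0.076 between the knockouts. Klf15, a transcription factor of amino acid metabolism, had levels of -0.92 and -0.79 in Trsp-RIPKO and -1.16 and -0.74 in Trsp-Ins1KO, against -0.35 and -0.20 in TrspFF. Like Fkbp5 and 18% of all probes, it was lower on all 4 knockout arrays (differences -0.57 and -0.67, adjusted p = 0.141 and 0.104). Of the 30 genes, 5 had both Trsp-RIPKO arrays above both TrspFF arrays and 8 had them below. In Trsp-Ins1KO these numbers were 3 above and 12 below. Over all probes, the arrays did not overlap on 58.1% in each of these 2 comparisons. The clock gene Per1 had levels of 3.18 and 3.14 in Trsp-RIPKO, against 1.80 and 2.21 in Trsp-Ins1KO, with TrspFF between them at 2.38 and 2.97 (difference between knockouts 1.15, adjusted p = 0.265). Rasd1, a dexamethasone-induced Ras-like protein, differed in the same direction by 1.55 (adjusted p = 0.265). The limma fit of these 2 genotypes alone, with its 385 calls, gave Rasd1 an adjusted p of 0.0446. It leaves out the TrspFF arrays, which stood at -1.06 and 0.06 for Rasd1. Mt1, a metallothionein, differed from TrspFF by 0.15 in Trsp-RIPKO and 0.39 in Trsp-Ins1KO (adjusted p = 0.395 and 0.106 by limma). Its 4 knockout arrays lay above both TrspFF arrays, as on 16.4% of all probes.

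The 5 tested effectors of mineralocorticoid action also gave 0 calls by limma. Nedd4l, the ubiquitin ligase that removes the epithelial sodium channel, had levels of 0.99 and 0.86 in Trsp-RIPKO and 0.76 and 0.58 in Trsp-Ins1KO, against 1.25 and 1.41 in TrspFF. All 4 knockout arrays lay below both TrspFF arrays, as on 18% of all probes, with differences of -0.41 (adjusted p = 0.138) and -0.66 (adjusted p = 0.0693). The other tested Nedd4l probe differed from TrspFF by 0.067 in Trsp-RIPKO and by -0.18 in Trsp-Ins1KO, so the probes disagree in sign in Trsp-RIPKO and in size in Trsp-Ins1KO.

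**Figure D4:**
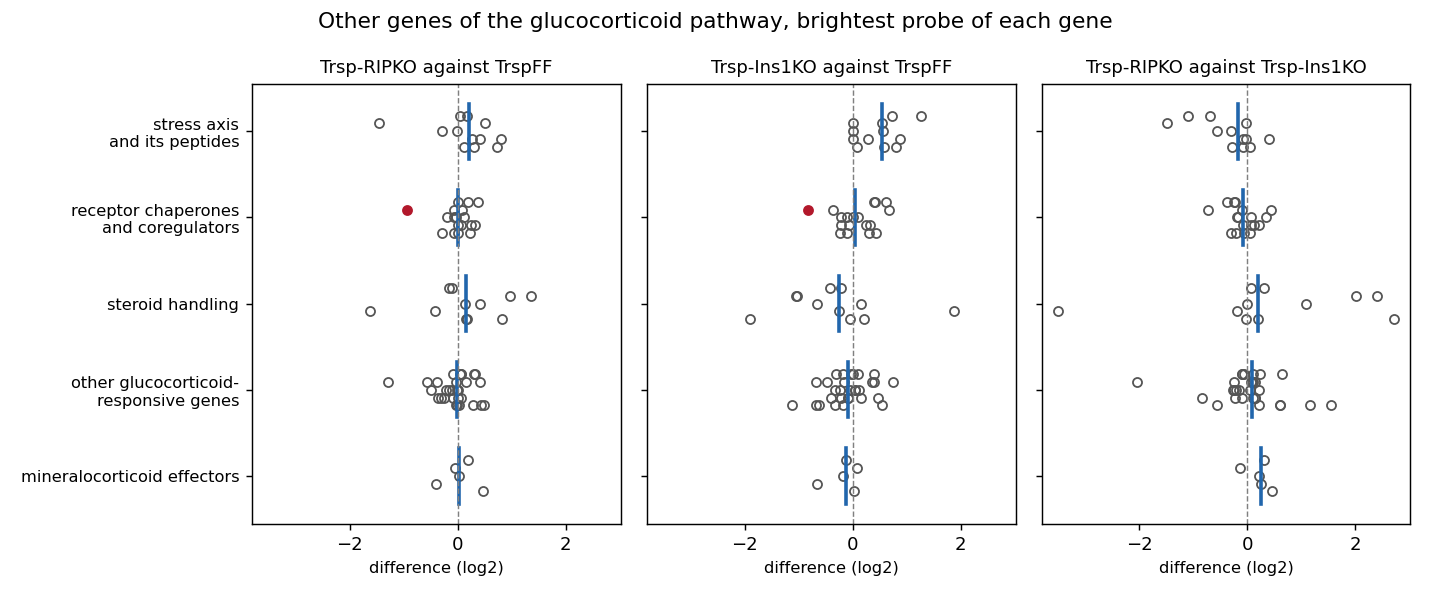
Difference (log2) of each tested gene in 5 lists of the glucocorticoid pathway, 1 point per gene read by its brightest probe, with a bar at the list's median and 1 panel per comparison. The only filled point, Ppp5c, lies at -0.94 in Trsp-RIPKO and -0.83 in Trsp-Ins1KO against TrspFF and marks an adjusted p under 0.05, and the 12 stress axis genes lie at or above 0 in Trsp-Ins1KO against TrspFF.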

How the data were processed

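Total RNA of hypothalamus was labelled with Cy3 and read with Agilent Feature Extraction 10.7.3.1, per the submitters' processing notes and the labels. Array annotation follows mm9, per the file headers. The deposited scanner files hold each spot's intensity after the scanner software's background subtraction, with quality flags. A value table by the authors holds log2 values centred on each probe's median; its scaling is not given in the sources used.

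Unflagged spots of a probe were averaged on the linear scale, before log2 and scaling to the 75th percentile of the array. A probe was tested if it had an unflagged spot on all 6 arrays and some genotype had it well above background on both its arrays. That held for 28064 of 39429, and flagged spots left out 118 probes. Transcripts were named through the RefSeq gene table of GRCm38.p6, which gave 26055 probes (66.1%) a symbol. The 3 comparisons used limma 3.58.1 (lmFit on all 6 arrays, eBayes) in R 4.3.3, with Benjamini-Hochberg adjustment over all tested probes at 0.05. Labels were read with jsonlite 2.0.0, and the fit was tested on simulated data. The number of arrays, 2 per genotype, limits the precision.

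The members, gene lists and comparisons were chosen with earlier results of these data known. All member probes are described. Another gene is read by its brightest probe and named when called (up to 6 per list), otherwise among the 4 smallest p of its list, and the 2 genes most like a member are named for Fkbp5, Sgk1, Tsc22d3 and Nr3c1. Replicate numbers did not pair the arrays: deviations of same-numbered arrays correlated at -0.01, -0.02 and 0.09. Alternatives were normexp (offset 50, on median signals), quantile normalization, median scaling, the value table, other filters, brightest probes, trend and robust, fewer groups, a replicate block, each array left out and the table's names. The joint comparison of both knockouts was added after the data were seen.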

Additional observations from a re-analysis of the deposited data

Results flagged for a closer look

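Hsd11b1 lay on opposite sides of the TrspFF mean in the 2 knockouts: its Trsp-RIPKO arrays stood 0.39 and 0.50 above that mean, and its Trsp-Ins1KO arrays stood at -0.30 and -0.40 from it. The difference between the knockouts was 0.79 (log2) with an adjusted p of 0.265 by limma, so it did not pass the test. The TrspFF arrays themselves stood at -0.36 and 0.36 from their mean.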

How the results depend on the processing

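Under 17 alternatives and the joint comparison of both knockouts (added after the data were seen), 0 of the 9 member probes passed the threshold in any comparison, and the lowest adjusted p was 0.0547, 0.0552 and 0.0594 in Trsp-RIPKO against TrspFF, Trsp-Ins1KO against TrspFF and Trsp-RIPKO against Trsp-Ins1KO. With the replicate block the counts of member probes were 0 as well, and the Ppp5c call ended (adjusted p = 0.0784 and 0.0922) with its differences unmoved at -0.94 and -0.83. The numbers do not pair the arrays, and the block took the counts over all probes to 0 in the 3 comparisons.

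Most signs that turned belong to reported differences near or below their SE, and the cause was not tested. The normexp values of the brighter Nr3c1 probe were larger beside their SE of 0.154 (adjusted p = 0.206 in Trsp-RIPKO and 0.244 in Trsp-Ins1KO against TrspFF by limma). In Trsp-RIPKO against TrspFF normexp gave -0.38 for Nr3c1 (brighter probe), 0.11 for Nr3c2 and -0.10 for Crh, quantile normalization gave 0.083 for Nr3c2, and median scaling gave 0.055 for Nr3c2 and 0.013 for Zbtb16. In Trsp-Ins1KO against TrspFF normexp gave -0.32 for Nr3c1, 0.054 for Tsc22d3 and -0.12 for Crh, quantile normalization gave -0.033 for Nr3c1, and median scaling gave 0.072 for Tsc22d3. Averaging the knockouts gave 0.049 for Hsd11b1. Between the knockouts quantile normalization gave 0.050 for Nr3c1.

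With the table's names Hsd11b1 differed from TrspFF by -0.35 in Trsp-RIPKO and 0.44 in Trsp-Ins1KO. Between the knockouts the same names gave 0.041 and 0.13 for the brighter and dimmer Nr3c1 probes, -0.40 for Nr3c2, -0.79 for Hsd11b1, 0.036 for Fkbp5, -0.021 for Sgk1, 0.15 for Tsc22d3, 0.40 for Pdk4 and -0.62 for Zbtb16. They gave 1.10 for Avp, -1.08 for Abcb1a, -2.01 for Abcb1b, -1.15 for Per1 and -1.55 for Rasd1.

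With 1 array left out, these differences turned sign. In Trsp-RIPKO against TrspFF they ranged from -0.15 to 0.18 for the brighter and -0.58 to 0.048 for the dimmer Nr3c1 probe, -0.41 to 0.30 for Nr3c2 and -0.24 to 0.045 for Zbtb16. In Trsp-Ins1KO against TrspFF they ranged from -0.029 to 0.15 and -0.30 to 0.041 for the Nr3c1 probes, -0.25 to 0.22 for Tsc22d3, -0.71 to 0.010 for Hsd11b1 and -0.097 to 0.25 for Crh. Between the knockouts they ranged from -0.21 to 0.13 and -0.45 to 0.18 for the Nr3c1 probes, -0.43 to 0.47 for Sgk1, -0.078 to 0.0051 for Fkbp5 and -0.39 to 0.080 for Tsc22d3. Others kept their sign and moved by over 1.5 times. In Trsp-RIPKO against TrspFF these were Hsd11b1 (0.087 to 0.80), Pdk4 (0.16 to 0.36) and Mt1 (0.065 to 0.24), and in Trsp-Ins1KO against TrspFF Nr3c2 (-0.76 to -0.14), Pdk4 (0.26 to 1.05) and Sgk1 (-0.92 to -0.028). Between the knockouts they were Nr3c2 (0.044 to 0.75), Pdk4 (-0.79 to -0.0027), Zbtb16 (0.40 to 0.84) and Avp (-1.49 to -0.71). A lone array is then assumed to vary like the other genotypes.

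Counts over all probes moved more. In Trsp-RIPKO against TrspFF they were 417 as reported, 210 with median scaling, 1016 with trend and robust, 0 with no filter and with only the 2 genotypes, and 0 to 526 with 1 array left out. In Trsp-Ins1KO against TrspFF they were 466, with 753 under normexp, 1600 with trend and robust, 28 with no filter, 0 with only the 2 genotypes and 0 to 537 with 1 array left out. Between the knockouts they were 4, with 1 under normexp and with trend and robust, 2 when all arrays had to be above background, 0 with no filter, 385 with only the 2 genotypes, which lie on 1 slide, and 0 to 385 with 1 array left out. Of the calls with trend and robust, 239 were higher and 777 lower in Trsp-RIPKO and 720 and 880 in Trsp-Ins1KO against TrspFF, beside 21 and 396 and 58 and 408 as reported. Under normexp they were 89 and 441 in Trsp-RIPKO and 237 and 516 in Trsp-Ins1KO, and with 1 slide alone the knockouts had 205 and 180.

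With trend and robust, Adcyap1 passed in Trsp-RIPKO and Trsp-Ins1KO (adjusted p = 0.0434 and 0.0323), Por in Trsp-RIPKO (0.0333) and Nedd4l in Trsp-Ins1KO (0.0312). Normexp also brought Adcyap1 (0.0407) and Nedd4l (0.0285) past the threshold in Trsp-Ins1KO. There the 18 genes of the chaperone list had 3 calls under normexp and 4 with trend and robust. The same fits called 753 and 1600 of all probes. Median scaling put the median difference of all probes at 0.09 in Trsp-RIPKO and 0.10 in Trsp-Ins1KO against TrspFF, beside -0.02 and 0.02. Slide could not enter the comparisons with TrspFF, so no fit with slide as a block was run there.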

Other observations

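Several genes of the steroid pathway had no tested probe, since none of their probes met the filter given above. In the stress axis these were Avpr1b, Mc2r and Ucn2. Among enzymes of steroid metabolism they were Hsd11b2, which inactivates corticosterone where Hsd11b1 regenerates it, and the adrenal enzymes Cyp11b1 and Cyp11b2. Among mineralocorticoid effectors they were the sodium channel subunits Scnn1b and Scnn1g and the potassium channel Kcnj1. The pituitary markers Gh, Prl, Tshb, Fshb and Pou1f1 had no tested probe either.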
